A study of Mus musculus with 13 samples.

Results

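The interferon response genes are transcripts that cells switch on after type I or type II interferon, and the 41 genes followed here were taken from a list of such genes. A gene was read from a probe set annotated to it alone, and 37 of the 41 had one, among 19938 genes tested in all. Isg15, Oas1g and Gbp2 lie on probe sets that also name another gene and Ifi44 was not listed by the platform annotation, so these 4 have no value here. The samples were femoral bone marrow from male C57BL/6 mice, 6 weeks old. Controls were collected at baseline (n = 3), and the other mice lost 500 µL of blood at a retro-orbital bleed and were collected after 4 h (1 array), 9 h (3 arrays), 12 h (2 arrays), 15 h (2 arrays) or 48 h (2 arrays). Each sample's RNA went on 1 Mouse Gene 1.0 ST array from Affymetrix, and the series asked how the marrow profile at each time differed from baseline. The labels do not say that the arrays of a group came from separate animals, so p-values measure the spread between these arrays, which may be technical.

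Type I interferons bind the receptor chains IFNAR1 and IFNAR2 and act through the kinases JAK1 and TYK2. STAT2 and IRF9 then act within ISGF3, a complex that binds the interferon stimulated response element in promoters and turns on genes that block viral replication, sense viral RNA or restrain the pathway. In marrow, interferon signalling is known for its effects on stem and progenitor cells, and many of these genes have a low standing level without infection.

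Promoter sequences show what many of the genes share apart from their place on the list. Of the 37 measured genes 28 had a promoter in the RefSeq table (build GRCm38.p6), which spans 250 bases before to 50 bases after each listed start. The response element was searched as GAAANNGAAA on both strands, and 14 of the 28 genes held it, against 3.99% of 27025 genes and 3.44% of 32851 promoters of the same length. With 1 or 2 free bases allowed between the GAAA motifs it was in 17 of the 28 genes, against 7.27% of all genes. The gamma activated sequence, searched as TTCNNNGAA on both strands, was in 7 of the 28 genes, against 9.55% of all genes. Overlapping matches were counted for both motifs. A stretch could match both motifs. A match is a run of letters, and whether a factor binds there was not measured.

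The 4 promoters printed here belong to Ifi207 and Ifit3, which passed the test against control, to Cxcl10, which varied most between the controls, and to Bst2, which holds 2 overlapping matches and differed little between groups. Each reads 5′ to 3′ along the gene, and capitals mark matches to the response element on either strand.
Ifi207, chr1:173741760-173742059, minus strand: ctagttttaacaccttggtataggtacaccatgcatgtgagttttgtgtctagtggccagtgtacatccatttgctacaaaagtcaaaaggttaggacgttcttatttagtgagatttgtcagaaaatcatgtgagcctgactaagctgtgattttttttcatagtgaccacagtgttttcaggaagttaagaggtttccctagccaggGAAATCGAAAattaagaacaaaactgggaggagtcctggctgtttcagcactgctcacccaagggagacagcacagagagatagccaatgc
Ifit3, chr19:34583279-34583578, plus strand: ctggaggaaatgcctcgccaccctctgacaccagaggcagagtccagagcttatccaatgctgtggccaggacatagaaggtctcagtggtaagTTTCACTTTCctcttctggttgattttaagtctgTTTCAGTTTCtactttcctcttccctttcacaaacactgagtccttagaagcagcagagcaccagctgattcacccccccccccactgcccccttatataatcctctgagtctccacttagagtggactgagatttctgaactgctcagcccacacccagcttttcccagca
Cxcl10, chr5:92348840-92349139, minus strand: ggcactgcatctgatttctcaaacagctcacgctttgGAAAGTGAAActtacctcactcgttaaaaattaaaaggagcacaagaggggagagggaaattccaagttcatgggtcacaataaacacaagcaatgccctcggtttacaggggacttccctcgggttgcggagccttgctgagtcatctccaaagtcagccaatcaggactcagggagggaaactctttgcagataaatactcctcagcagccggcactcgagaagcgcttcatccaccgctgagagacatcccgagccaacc
Bst2, chr8:71537423-71537722, minus strand: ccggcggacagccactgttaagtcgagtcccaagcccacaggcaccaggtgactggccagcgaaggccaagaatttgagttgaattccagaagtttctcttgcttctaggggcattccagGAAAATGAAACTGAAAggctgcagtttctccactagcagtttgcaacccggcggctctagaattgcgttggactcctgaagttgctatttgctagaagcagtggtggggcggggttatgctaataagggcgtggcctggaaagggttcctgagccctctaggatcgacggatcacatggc
The match in Ifi207 began at position -41 from the start listed with its promoter, and the 2 in Ifit3 began at -156 and -122. That start need not be the outermost start of the gene. In Cxcl10 the match began at -213, and in Bst2 the overlapping matches began at -130 and -124.

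The title numbers fall in 2 runs, a first of 10 arrays with controls 1 and 2 and every array but 2 of the 9 h group, and a second of 3 arrays with control 3 and 9 h arrays 1 and 2. The median log2 level per array over the genes was 7.30 to 7.40 in the first run and 8.13 to 8.14 in the second, so levels were compared within a run only. Of the probe sets 62.3% repeated a value among the 3 second-run arrays, while in the first run no choice of 3 arrays gave more than 0.11%. Marrow markers were high, with the first-run means of Mpo, Elane and Ngp (granulocyte proteins) above the 99th percentile of gene levels. The 4 h array also carried small intestine markers, with a summed linear level of 36390 over 30 genes against 3158 to 3364 in the first-run controls and 2327 to 3053 on the first-run arrays at 9 to 48 h, and skeletal muscle markers (18030 over 17 genes against 4683 to 5068 in those controls and 2414 to 10080 on the first-run arrays at 9 to 48 h). Some intestine genes were also higher in the controls than on later arrays. Reg3g had log2 levels of 7.61 and 7.54 in controls 1 and 2. On the first-run arrays at 9 to 48 h it had 5.17 to 6.11. In the second run it was 7.71 in control 3 and 5.41 and 5.54 at 9 h. Reg3g, Fabp2 and Reg3b passed as lower at 9, 12, 15 and 48 h, where 0.0201% to 0.0502% of all genes did. At 48 h 2 of the 30 passed as higher. The part of this tissue in the comparisons with control was not tested. Liver markers summed to 6583 to 7616 over 17 genes on the 48 h arrays, against 3010 to 3406 in the first-run controls. In bulk marrow, fewer cells of a type and less RNA per cell cannot be told apart.

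Most interferon response genes had lower fitted levels after phlebotomy than in the controls, but few single genes passed the test. The fit was a limma linear model over all 13 arrays with a term for the run, and a gene passed at an adjusted p under 0.05 over all genes. At 4 h 34 of the 37 genes were below control with a median log2 fold change of -0.43 (all genes -0.00). The 1 gene that passed was lower, where 1.99% of all genes passed and 0.251% passed as lower. At 9 h 34 were below control with a median of -0.20 (all genes 0.01), and 0 passed by limma, with 10 at an unadjusted p under 0.05. Of all genes 0.0953% passed and 6.12% were at an unadjusted p under 0.05. At 12 h all 37 were below control with a median of -0.43 (all genes -0.01), and 0 passed, with 29 at an unadjusted p under 0.05, against 0.105% and 13.7% of all genes. 

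At 15 h 36 of the 37 genes were below control with a median log2 fold change of -0.19 (all genes -0.01), and 0 passed by limma, with 6 at an unadjusted p under 0.05, against 0.256% and 12.5% of all genes. At 48 h 35 were below control with a median of -0.23 (all genes 0.01). There 1 passed, as lower, against 0.376% of all genes, or 0.0502% as lower. For the 9, 12 and 15 h groups averaged, 36 were below control with a median of -0.26 (all genes -0.00). There 2 passed, both as lower, against 0.787% of all genes, or 0.135% as lower. Against that mean, 48 h had 19 of the 37 lower and a median of -0.03 (all genes 0.01), and 0 passed by limma, with 4 at an unadjusted p under 0.05, against 0.978% and 15.8% of all genes. No gene of the list passed as higher in any of the 7 comparisons, where 10 to 347 of all 19938 genes did. Shares of all genes that passed count both directions unless stated. The 6 comparisons with control share the same 3 control arrays, so the shared direction is not 6 separate observations, and the single array at 4 h was taken to vary as the other groups did.

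**Figure D1:**
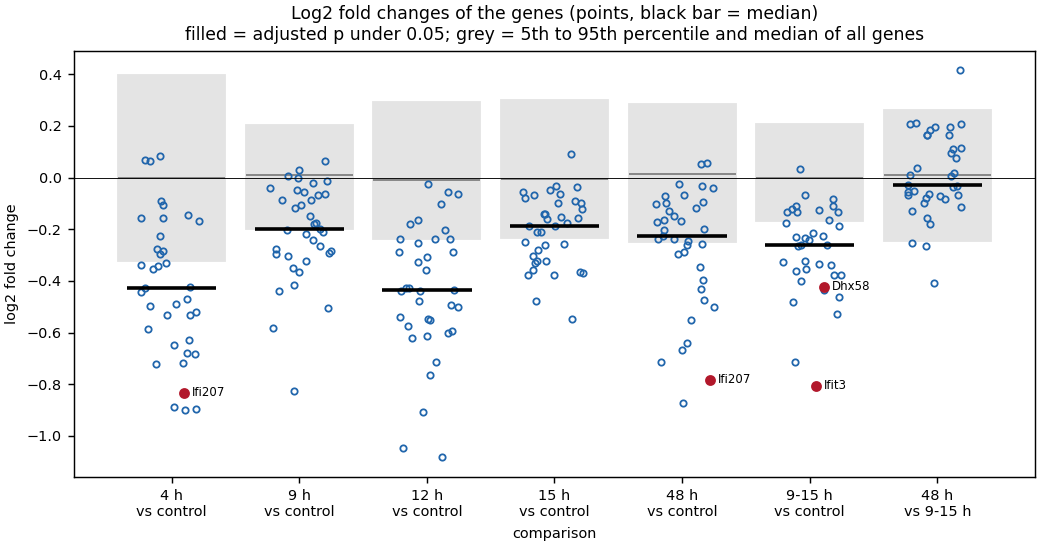
Log2 fold change (vertical axis) of each of the 37 measured genes in the 7 comparisons (horizontal axis); points are genes, black bars their medians, filled points those past an adjusted p of 0.05, and grey boxes the 5th to 95th percentile of all genes with a grey line at their median. The medians against control lie between -0.19 and -0.43, the median of 48 h against 9 to 15 h is -0.03, and the 4 filled points belong to the 3 genes named.

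How far the list lay below control depended on which control was used. Control 2 was the highest of the 10 first-run arrays in 32 of the 37 genes, whereas 11.1% of all genes were highest there. Control 2 exceeded control 1 in 36 of the 37 genes with a median difference of 0.35 on the log2 scale, while 52.2% of all genes were higher in control 2 with a median of 0.01. The exception was Gbp3, and the widest gap was 1.86 in Cxcl10. Centring each array on its median left 36 of 37 higher in control 2, with a median difference of 0.41.

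Each control was then set against the phlebotomised arrays of its own run. Control 1 was above the mean of the 8 phlebotomised arrays in 28 of the 37 genes (45.4% of all genes), with a median difference of 0.07 on the log2 scale. Control 2 was above that mean in all 37 (47.9% of all genes), with a median of 0.45. Control 3 was above the mean of its 9 h arrays in 36 (26.7% of all genes), with a median of 0.22. In the second run 33 of the 37 genes had 3 different values, against 4864 of all 19938 genes. Genes with equal values on all 3 arrays cannot be above, so these 2 shares are not alike. With each array centred on its median, control 1 was above in 24 of the 37 genes (median 0.05) and control 2 in all 37 (0.49). So the first-run controls lay far apart, and control 1 stood close to the phlebotomised arrays for most of the list.

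Among the phlebotomised arrays, 12 h array 1 was the lowest first-run array in 21 genes, the 4 h array in 8 and 48 h array 1 in 5. Of all genes 12.3%, 14.1% and 10.3% were lowest there. The spread within a group was wide at 12 h, where array 2 exceeded array 1 in 32 genes (51.8% of all genes), with a median difference of 0.17 on the log2 scale. In the second run 9 h array 2 exceeded 9 h array 1 in 33, with a median of 0.16. Of all genes 20.3% did, as many had equal values there. The other pairs differed less. Array 2 exceeded array 1 in 15 of the 37 genes at 15 h (median -0.01, 53.7% of all genes) and in 22 at 48 h (0.05, 47.0%). The median deviation of the 37 genes from their run mean was 0.40 on control 2, 0.01 on control 1, -0.27 on 12 h array 1 and -0.07 on 12 h array 2. On the 15 h arrays it was 0.06 and 0.05.

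**Figure D2:**
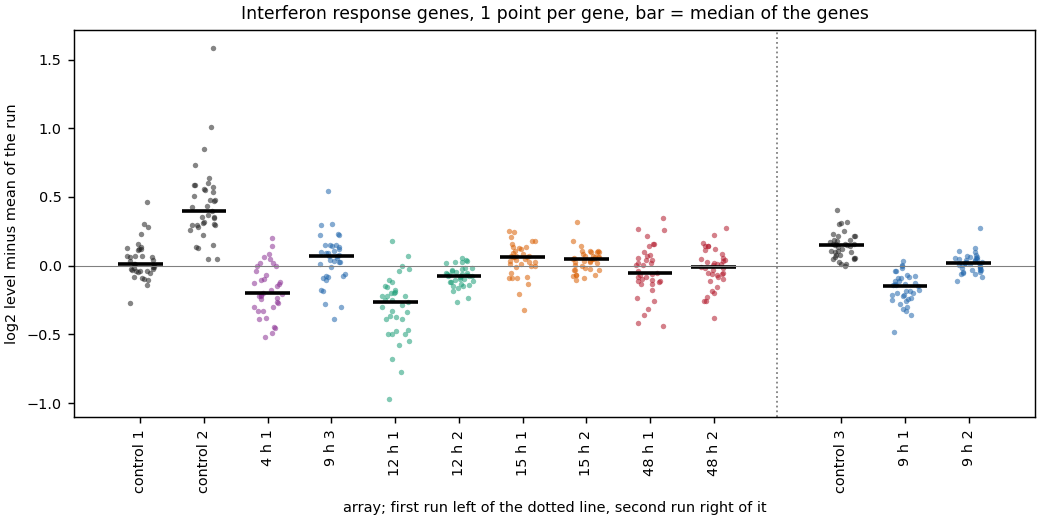
Log2 level of each of the 37 genes minus its mean over the arrays of the run (vertical axis) on the 13 arrays (horizontal axis); points are genes, black bars the median of the 37, and the dotted line separates the runs. Control 2, with a median of 0.40, is the array that stands highest, and 12 h array 1, with -0.27, the lowest.

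Cell markers also differed between the first-run controls. All 17 erythroid markers were higher in control 2 than in control 1, by a median of 0.51 on the log2 scale, with summed linear levels of 47910 in control 1 and 64170 in control 2. Of 16 stroma and bone markers 2 were higher in control 2, with a median of -0.60 and summed levels of 39070 and 24710. Plasmacytoid dendritic cells are strong producers of type I interferon, and 8 of their 11 markers were higher in control 2, with a median of 0.17 and summed levels of 8126 and 9397. Of 11 monocyte markers 1 was higher in control 2, with a median of -0.10. No marker was at 0, as array levels have no true zero, and the part of these cells in the difference between the controls was not tested.

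Leaving out control 1 lowered the medians further. The median log2 fold change became -0.55 at 4 h with 17 of the 37 genes passing, where 6.82% of all genes passed, and -0.56 at 12 h, again with 17 passing, where 2.08% of all genes passed. At 15 h the median was -0.32 and Ifi207, Cmpk2 and Dhx58 passed (2.53% of all genes), and at 48 h it was -0.34 with Ifi207 alone passing (0.281% of all genes). For the mean of 9, 12 and 15 h it was -0.39, and 8 genes passed: Dhx58, Ifi207, Cmpk2, Ifit3, Oas3, Rtp4, Irf7 and Trim30a (1.71% of all genes). At 9 h 0 passed by limma, with a median of -0.28 and 21 at an unadjusted p under 0.05, where 5.82% of all genes were. The 17 genes at 4 h were Ifi207, Rsad2, Herc6, Cmpk2, Eif2ak2, Dtx3l, Ifit1, Trim30a, Dhx58, Oas3, Usp18, Rtp4, Isg20, Xaf1, Ifit3, Irf9 and Ifih1. Those at 12 h were Ifi207, Dhx58, Oas2, Trim30a, Cmpk2, Trim25, Oas3, Ifit3, Oasl2, Irf9, Irf7, Ddx58, Rtp4, Adar, Dtx3l, Xaf1 and Oasl1.

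Leaving out control 2 had the opposite effect. The median log2 fold change became -0.32 at 4 h, -0.12 at 9 h, -0.30 at 12 h, -0.06 at 15 h, -0.09 at 48 h and -0.14 for the mean of 9, 12 and 15 h. Ifi207 passed at 4 h (1.47% of all genes) and at 48 h (0.446% of all genes), and no gene of the list passed for the mean of 9, 12 and 15 h (0.155% of all genes), with 7 at an unadjusted p under 0.05 in limma, where 6.38% of all genes were. At 15 h 26 of the 37 genes were still below control and at 48 h 28.

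Leaving out control 3 moved the median log2 fold change at 9 h from -0.20 to -0.13, with 30 of the 37 genes below control in place of 34. The other medians became -0.40 at 4 h, -0.42 at 12 h, -0.18 at 15 h, -0.23 at 48 h and -0.24 for the mean of 9, 12 and 15 h. Ifi207 passed at 4 h (1.79% of all genes) and at 48 h (0.371%), and Ifit3 passed for the mean of 9, 12 and 15 h (1.1%), whereas Dhx58 no longer did (adjusted p = 0.0815). The comparison of 48 h with the mean of 9, 12 and 15 h uses controls only through the run term and the estimate of the spread. Without control 1 or without control 2 it gave 2 passing genes, Ifi207 lower and Cmpk2 higher at 48 h, where 2.24% and 2.52% of all genes passed.

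**Figure D3:**
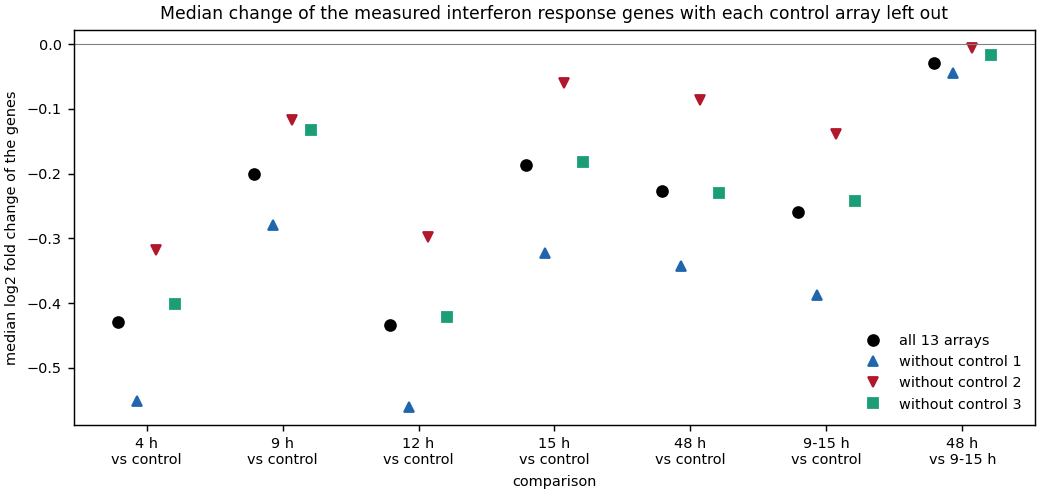
Median log2 fold change of the 37 genes (vertical axis) in each comparison (horizontal axis) with all 13 arrays (circles) and without control 1 (triangles up), control 2 (triangles down) or control 3 (squares). Without control 1 the medians against control run from -0.28 to -0.56, and without control 2 from -0.06 to -0.32.

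Complete separation of controls from phlebotomised arrays was seen for few genes. In the first run both controls lay above all 8 phlebotomised arrays in 5 of the 37 genes, Irf7, Dhx58, Ifit3, Rtp4 and Trim30a, against 2.21% of all genes. The same 5 genes also had control 3 above both 9 h arrays, which held for both runs in 0.446% of all genes. Control 1 by itself was above all 8 in 6 genes, these 5 and Gbp3 (8.39% of all genes), and control 2 in 32 (11.9% of all genes). Control 3 was above both 9 h arrays of its run in 30 of the 37 (15.2% of all genes), and of the 33 with 3 different values there it was highest in 30 (41.1% of 4864 such genes). In no gene of the list did both first-run controls lie below all 8 phlebotomised arrays. The share of all genes with that order was not counted, so nothing is read from it.

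Ifi207 encodes a member of the PYHIN family of interferon-inducible nuclear proteins and was the gene of the list that passed against control at single times. Its log2 level in the first run was 11.25 and 11.56 in controls 1 and 2, 10.58 at 4 h, 11.27 at 9 h, 10.77 and 10.88 at 12 h, 11.10 and 11.02 at 15 h, and 10.55 and 10.71 at 48 h. On the second-run arrays the values were 11.87 in control 3 and 11.69 and 11.61 at 9 h. The 4 h, 12 h, 15 h and 48 h arrays all lay below both controls, and the first-run 9 h array lay between them.

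The log2 fold change of Ifi207 was -0.84 ± 0.13 (SE) at 4 h (adjusted p = 0.00403, 1.78-fold lower) and -0.78 ± 0.10 at 48 h (adjusted p = 0.00712, 1.72-fold lower). At 9, 12 and 15 h it was -0.18, -0.59 and -0.36 (adjusted p = 0.810, 0.0680 and 0.211). Against the mean of 9, 12 and 15 h, 48 h was at -0.41 ± 0.09 (adjusted p = 0.0602). The 4 h and 48 h calls held without any 1 control, with log2 fold changes of -0.96, -0.74 and -0.82 at 4 h and -0.90, -0.69 and -0.77 at 48 h without controls 1, 2 and 3. The 48 h call was lost without 48 h array 1 (-0.70, adjusted p = 0.0893) and with the first run alone (-0.77, adjusted p = 0.0697), and both calls were lost with no run term, where the log2 fold changes were -0.98 and -0.93 (adjusted p = 0.943 and 0.881). On the 4 h array the intestine and muscle markers were higher than in the controls. On both 48 h arrays the liver markers were higher, while the muscle markers summed to 10080 on array 1 and 2414 on array 2 and the intestine markers to 3053 and 2729, below the first-run controls. The part of these tissues in the Ifi207 differences was not tested.

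Ifit3 encodes an IFIT protein, one of a family that binds viral RNA. Its log2 level in the first run was 9.40 and 9.95 in controls 1 and 2, 8.71 at 4 h, 8.64 at 9 h, 8.44 and 8.67 at 12 h, 9.06 and 9.05 at 15 h, and 8.50 and 8.97 at 48 h. The second run gave 10.27 in control 3 and 9.50 and 9.82 at 9 h. Every phlebotomised array lay below the controls of its run. For the mean of 9, 12 and 15 h the log2 fold change was -0.81 ± 0.14 (adjusted p = 0.0314), and at single times it was -0.90 at 4 h, -0.82 at 9 h, -1.05 at 12 h, -0.55 at 15 h and -0.87 at 48 h, none past the threshold (lowest adjusted p = 0.0831). Without control 2 the change for the mean of 9, 12 and 15 h was -0.59 (adjusted p = 0.22), without control 1 -0.93 (0.0293) and without control 3 -0.93 (0.0419). The call was also lost without 9 h array 1 or 3 and without any 1 of the 12 h or 15 h arrays, with log2 fold changes of -0.77 to -0.84 and adjusted p of 0.0515 to 0.102.

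Ifit1, which recognises the cap of foreign RNA, passed in none of the comparisons with all arrays. The first-run arrays had log2 levels of 9.46 and 10.24 in controls 1 and 2, 8.94 at 4 h, 9.44 at 9 h, 9.01 and 9.43 at 12 h, 9.64 and 9.45 at 15 h, and 9.08 and 9.23 at 48 h. Control 2 stood above all other first-run arrays, and control 1 lay within the range of the phlebotomised arrays. In the second run Ifit1 was 10.08 in control 3 and 9.73 and 9.98 at 9 h. The log2 fold change was -0.89 ± 0.26 at 4 h (adjusted p = 0.139) and -0.67 ± 0.21 at 48 h (adjusted p = 0.197). Without control 1 the 4 h change was -1.14 and passed (adjusted p = 0.0177). Without control 2 it was -0.59 and did not pass. Ifit2, of the same family, was at -0.03 at 12 h and -0.36 at 9 h, the smallest and the largest of its changes at single times.

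Of the 3 transcription factors of the list none passed with all arrays. Irf7 is itself interferon-induced and drives further type I interferon production. Its log2 level was 10.04 and 10.36 in controls 1 and 2, 9.87 at 4 h, 9.83 at 9 h, 9.34 and 9.63 at 12 h, 9.91 and 9.73 at 15 h, and 9.86 and 9.59 at 48 h. In the second run it was 10.79 in control 3 and 10.32 and 10.61 at 9 h. All phlebotomised arrays lay below the controls of their run, with log2 fold changes of -0.71 ± 0.14 at 12 h (adjusted p = 0.0880) and -0.48 ± 0.11 for the mean of 9, 12 and 15 h (adjusted p = 0.0736). Without control 1 it passed for both (adjusted p = 0.037 and 0.0485). Without control 2 it passed for neither, with log2 fold changes of -0.59 and -0.38 (adjusted p = 0.354 and 0.509).

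Stat2 and Irf9 are subunits of ISGF3, and neither passed with all arrays. Stat2 had first-run log2 levels of 8.97 and 9.24 in controls 1 and 2, 8.96 at 4 h, 9.08 at 9 h, 8.47 and 8.90 at 12 h, 9.00 and 9.04 at 15 h, and 8.90 and 8.84 at 48 h. In the second run Stat2 was 9.88 in control 3 and 9.75 and 9.88 at 9 h. The low 12 h array 1 stood apart from the rest, and the groups overlapped. For Irf9 the first-run log2 levels were 10.08 and 10.41 in controls 1 and 2, 9.98 at 4 h, 10.26 at 9 h, 9.85 and 9.99 at 12 h, 10.19 and 10.18 at 15 h, and 10.05 and 10.05 at 48 h, and in the second run 11.11 in control 3 and 11.08 and 11.11 at 9 h. Their log2 fold changes at 12 h were -0.43 ± 0.13 and -0.33 ± 0.10 (adjusted p = 0.202 and 0.205), and at 9 h -0.05 and -0.00. Without control 1 Irf9 passed at 4 h (-0.40, adjusted p = 0.0454) and at 12 h (-0.45, adjusted p = 0.037). Without control 2 its changes were -0.16 at 4 h and -0.21 at 12 h, and it passed at neither.

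Of the 5 RNA and DNA sensors and their regulators, Dhx58 passed for the mean of 9, 12 and 15 h. Dhx58 encodes LGP2, a helicase that tunes the RIG-I and MDA5 pathway. First-run log2 levels were 8.84 and 9.12 in controls 1 and 2, 8.55 at 4 h, 8.60 at 9 h, 8.46 and 8.44 at 12 h, 8.59 and 8.74 at 15 h, and 8.70 and 8.76 at 48 h. On the second-run arrays the values were 9.81 in control 3 and 9.26 and 9.45 at 9 h. As for Ifit3 and Irf7, the controls of each run lay above all of its phlebotomised arrays.

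For Dhx58 the log2 fold change for the mean of 9, 12 and 15 h was -0.43 ± 0.07 (adjusted p = 0.0280), with -0.41 at 9 h, -0.54 at 12 h and -0.32 at 15 h. It was -0.52 without control 1 (adjusted p = 0.0156), -0.35 without control 2 (0.226) and -0.41 without control 3 (0.0815). The call was also lost without 9 h array 1 and without any 1 of the 12 h or 15 h arrays, with log2 fold changes of -0.40 to -0.45 and adjusted p of 0.055 to 0.0815. At 48 h Dhx58 was at -0.26 ± 0.10 against control (adjusted p = 0.283).

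Ddx58 encodes RIG-I, the sensor of uncapped viral RNA, and Ifih1 encodes MDA5, the sensor of long double-stranded RNA. The log2 level of Ddx58 was 9.60 and 9.92 in controls 1 and 2, 9.44 at 4 h, 9.61 at 9 h, 9.22 and 9.48 at 12 h, 9.58 and 9.70 at 15 h, and 9.42 and 9.56 at 48 h, and in the second run 10.63 in control 3 and 10.30 and 10.42 at 9 h. Ifih1 had first-run log2 levels of 9.52 and 9.75 in controls 1 and 2, 9.18 at 4 h, 9.26 at 9 h, 9.34 and 9.38 at 12 h, 9.49 and 9.37 at 15 h, and 9.55 and 9.61 at 48 h, and in the second run 10.01 in control 3 and 9.75 and 9.91 at 9 h. For both, control 2 was highest in the first run and control 1 lay among the phlebotomised arrays. The log2 fold change at 12 h was -0.43 ± 0.12 for Ddx58 (adjusted p = 0.173), and at 4 h -0.42 ± 0.12 for Ifih1 (adjusted p = 0.121).

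Zbp1, a sensor of Z-form nucleic acids that can trigger cell death, had a different order of arrays. The first-run arrays had log2 levels of 8.38 and 8.73 in controls 1 and 2, 8.64 at 4 h, 8.50 at 9 h, 8.29 and 8.29 at 12 h, 8.46 and 8.40 at 15 h, and 8.25 and 8.38 at 48 h, and in the second run 9.36 in control 3 and 9.04 and 9.36 at 9 h. Control 2 was highest and the 4 h array next, so the log2 fold change at 4 h was 0.06 ± 0.15 (adjusted p = 0.891), one of 3 above 0 in the list at that time, with Bst2 and Ifi35. Trim25, the ubiquitin ligase that helps activate RIG-I, was at -0.44 ± 0.13 at 12 h (adjusted p = 0.203).

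None of the 5 OAS family members passed in any comparison with all arrays. These enzymes make 2′-5′ oligoadenylates or resemble those that do. For Oas2 the first-run log2 levels were 8.99 and 9.57 in controls 1 and 2, 8.89 at 4 h, 9.57 at 9 h, 8.35 and 8.87 at 12 h, 9.21 and 9.11 at 15 h, and 8.92 and 8.83 at 48 h, and in the second run 9.86 in control 3 and 9.42 and 9.73 at 9 h. Control 2 and the first-run 9 h array were about equally high and 12 h array 1 the lowest, so the groups overlapped. The log2 fold changes at 12 h were -0.77 for Oas2, -0.91 for Oasl2, -0.61 for Oas3, -0.58 for Oasl1 and -0.55 for Oas1a, with adjusted p from 0.144 to 0.259. Without control 1 Oas2, Oas3, Oasl1 and Oasl2 passed at 12 h, and Oas3 also at 4 h and for the mean of 9, 12 and 15 h. Without control 2 the 12 h changes of Oas2, Oas3, Oasl1 and Oasl2 were -0.63, -0.37, -0.45 and -0.73 (adjusted p from 0.466 to 0.625). Oas3 was then at -0.39 at 4 h and -0.17 for the mean.

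Neither of the MX GTPases passed with all arrays. Both were dim in the first run, where the array medians were 7.30 to 7.40. Mx2 had log2 levels of 5.50 to 6.46 there, and Mx1 was under those medians on all arrays but control 2. The log2 level of Mx1 was 6.91 and 7.42 in controls 1 and 2, 6.55 at 4 h, 6.76 at 9 h, 6.47 and 6.80 at 12 h, 6.87 and 6.87 at 15 h, and 7.00 and 6.78 at 48 h, and in the second run 7.78 in control 3 and 7.41 and 7.75 at 9 h. Control 2 was highest in the first run, and control 1 lay below 48 h array 1. The log2 fold change at 4 h was -0.58 ± 0.21 for Mx1 and -0.53 ± 0.21 for Mx2 (adjusted p = 0.218 and 0.266).

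None of the 7 other antiviral effectors passed in any comparison with all arrays. Rsad2 encodes viperin, which makes a chain-terminating nucleotide. Its log2 level was 12.12 and 12.58 in controls 1 and 2, 11.63 at 4 h, 12.04 at 9 h, 11.90 and 12.18 at 12 h, 12.31 and 12.19 at 15 h, and 12.37 and 12.19 at 48 h, and in the second run 13.02 in control 3 and 12.70 and 12.78 at 9 h. The 4 h array was the lowest of its run and control 1 lay within the phlebotomised arrays, and the log2 fold change at 4 h was -0.72 ± 0.17 (adjusted p = 0.0673). Cmpk2, the neighbouring kinase that supplies viperin's substrate, was at -0.53 ± 0.15 at 4 h (adjusted p = 0.130) and at 0.05 at 48 h. At 48 h it stood 0.42 ± 0.11 above the mean of 9, 12 and 15 h on the log2 scale (adjusted p = 0.100), which passed without control 1 or without control 2 (adjusted p = 0.0393 and 0.0205).

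Eif2ak2, the RNA-activated kinase PKR, was at -0.50 ± 0.14 at 4 h and between -0.20 and -0.04 at the later times on the log2 scale. Isg20, an exonuclease, was at -0.34 at 4 h and 0.06 at 48 h, and Adar, the RNA-editing deaminase, at -0.36 at 12 h. Samd9l, a restriction factor known for its part in marrow failure, ranged from -0.23 at 4 h to -0.02 at 9 h. Bst2 encodes tetherin, which holds budding virions at the cell surface. First-run log2 levels were 8.26 and 8.38 in controls 1 and 2, 8.39 at 4 h, 8.27 at 9 h, 8.05 and 8.18 at 12 h, 8.24 and 8.28 at 15 h, and 8.31 and 8.14 at 48 h, and in the second run 9.21 in control 3 and 9.04 and 9.21 at 9 h. The groups overlapped, and the log2 fold changes lay between -0.20 at 12 h and 0.07 at 4 h.

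Of the ISG15 system, Usp18 removes ISG15 from proteins and restrains the type I receptor. Usp18 had first-run log2 levels of 9.67 and 10.31 in controls 1 and 2, 9.26 at 4 h, 9.82 at 9 h, 9.21 and 9.65 at 12 h, 9.92 and 9.89 at 15 h, and 9.64 and 9.73 at 48 h, and in the second run 10.42 in control 3 and 10.13 and 10.47 at 9 h. Control 2 was highest in the first run, and control 1 lay below both 15 h arrays. At 4 h the log2 fold change was -0.72 ± 0.23 (adjusted p = 0.178). Herc6, the mouse ligase that attaches ISG15, was at -0.68 ± 0.19 at 4 h (adjusted p = 0.125) and -0.03 at 48 h. Parp9 and Dtx3l, which form a complex, were at -0.24 and -0.29 at 12 h, and Parp14 at -0.24, with adjusted p of 0.255, 0.266 and 0.334.

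Cxcl10, a chemokine that draws CXCR3-bearing lymphocytes, had the widest spread of the list. The first-run arrays had log2 levels of 8.49 and 10.34 in controls 1 and 2, 8.43 at 4 h, 8.57 at 9 h, 7.78 and 8.71 at 12 h, 8.62 and 9.07 at 15 h, and 8.52 and 9.03 at 48 h. The second run gave 9.42 in control 3 and 8.72 and 9.48 at 9 h. Control 2 stood above all other first-run arrays, and control 1 lay below 6 of the 8 phlebotomised arrays. The log2 fold change at 12 h was -1.08 ± 0.49 (adjusted p = 0.366), with a standard error larger than that of every other gene of the list.

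Rtp4, which limits viral replication and the type I response, and Trim30a, a TRIM protein that dampens Toll-like receptor signalling, had all controls above the phlebotomised arrays of their run. For Rtp4 the first-run log2 levels were 9.47 and 9.72 in controls 1 and 2, 8.96 at 4 h, 9.19 at 9 h, 8.94 and 9.03 at 12 h, 9.42 and 9.13 at 15 h, and 8.80 and 8.98 at 48 h, and in the second run 10.21 in control 3 and 9.56 and 9.92 at 9 h. Its log2 fold change was -0.72 ± 0.13 at 48 h (adjusted p = 0.0538) and -0.65 ± 0.16 at 4 h (adjusted p = 0.0840). The log2 level of Trim30a was 11.36 and 11.59 in controls 1 and 2, 11.01 at 4 h, 11.31 at 9 h, 10.93 and 11.16 at 12 h, 11.33 and 11.33 at 15 h, and 11.11 and 11.16 at 48 h, and in the second run 12.08 in control 3 and 11.80 and 11.87 at 9 h. Its log2 fold change was -0.47 ± 0.12 at 4 h and -0.44 ± 0.10 at 12 h (adjusted p = 0.0819 and 0.108).

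Xaf1, which promotes cell death, was at -0.52 at 4 h and -0.50 at 12 h on the log2 scale (adjusted p = 0.209 and 0.202). Gbp3, a guanylate binding protein, ranged from -0.06 at 15 h to -0.23 at 48 h. Ifi35, which binds Nmi, lay between -0.09 at 48 h and 0.09 at 15 h.

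**Figure D4:**
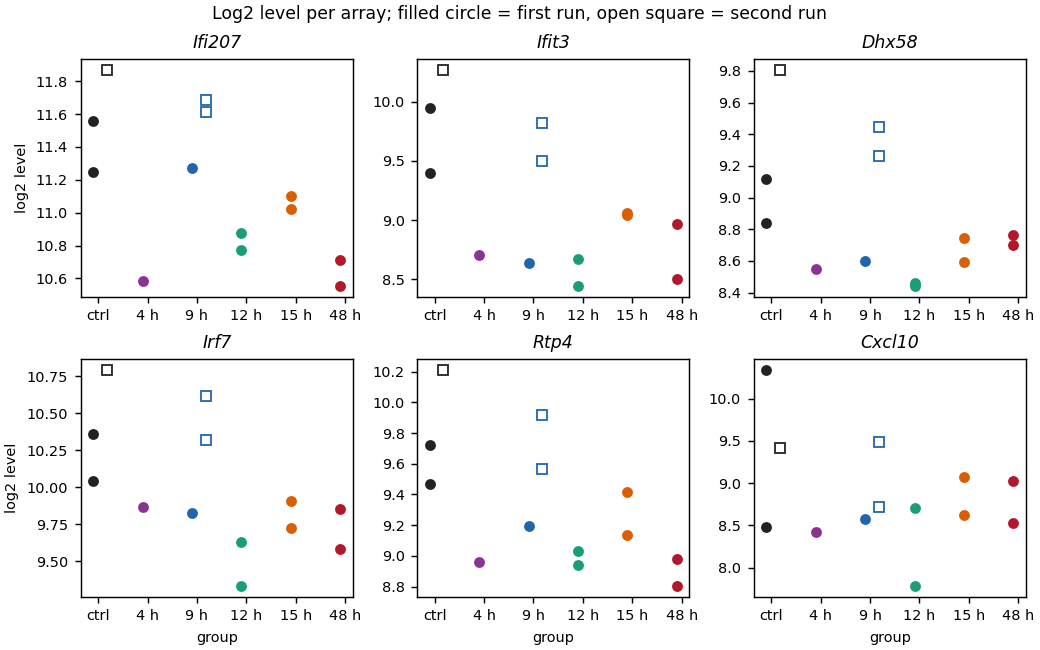
Log2 level (vertical axis) of 6 genes on each array by group (horizontal axis); filled circles are first-run arrays and open squares second-run arrays, which are on a higher level. Ifit3, Dhx58, Irf7 and Rtp4 have every control above the phlebotomised arrays of the run, whereas Cxcl10 has 1 first-run control at 10.34 and the other at 8.49.

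**Figure D5:**
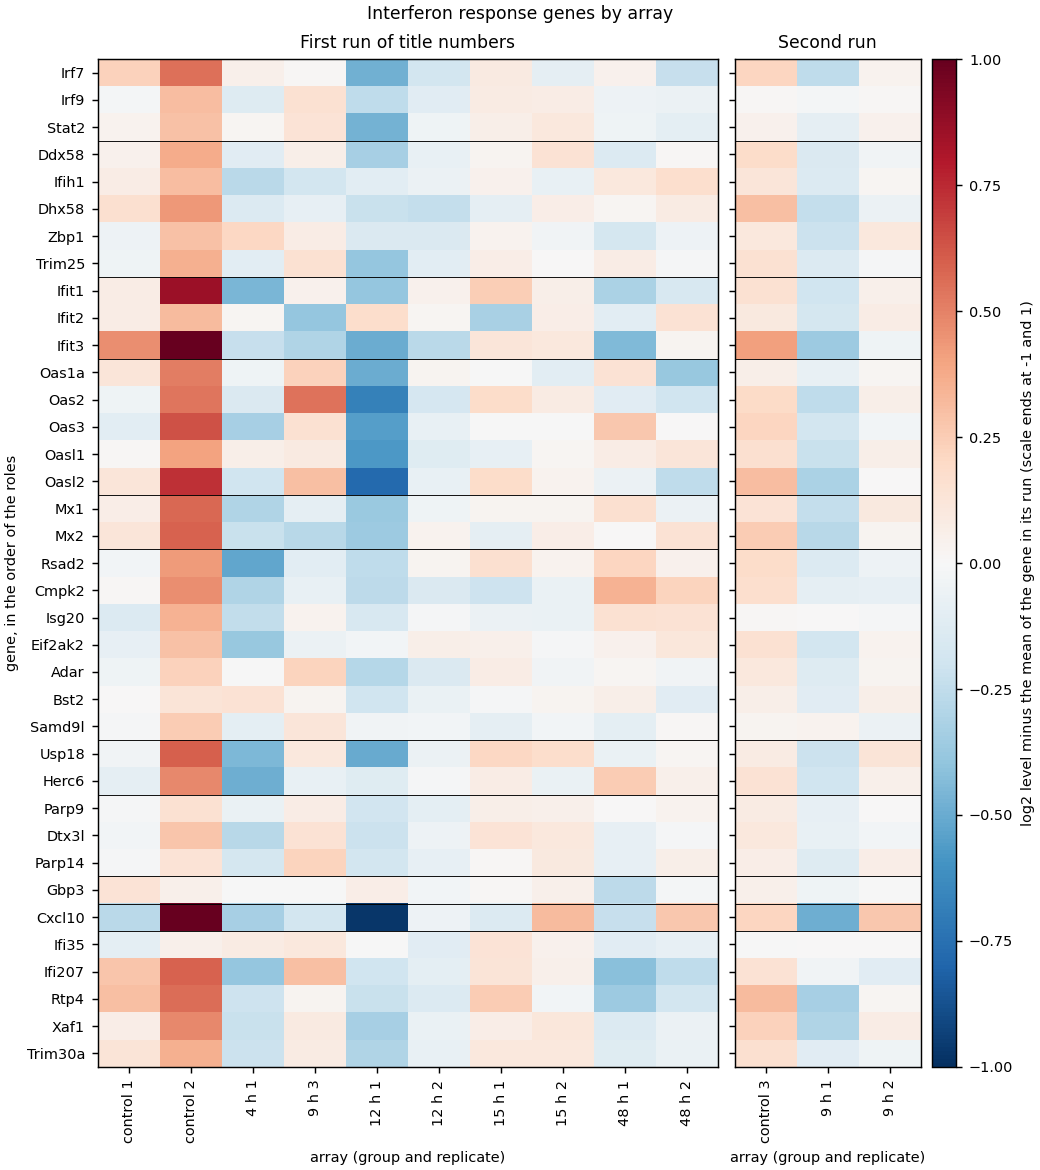
Heat map of the 37 genes (rows, ordered by role, with lines between roles) on the 13 arrays (columns), coloured by the log2 level minus the mean of the gene in its run, with the colour scale ending at -1 and 1. The red column of control 2, highest in 32 genes, and the blue column of 12 h array 1, lowest in 21, stand out as the highest and the lowest.

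Genes with a response element in the promoter had a lower median than those without it at each time but 15 h. For the mean of 9, 12 and 15 h the 14 genes with GAAANNGAAA had a median log2 fold change of -0.26 and the 14 without it -0.22, and the 9 genes with no promoter listed -0.32. At 4 h the medians were -0.48, -0.31 and -0.49. These are descriptions of the genes, and the difference between the sets was not tested.

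Both runs held the 9 h time, so the 9 h change could be compared between them. The median log2 fold change of the 37 genes at 9 h was -0.13 in the first run and -0.22 in the second. In a limma fit with a term for the difference between the runs, 0 of the 37 genes passed (lowest adjusted p = 0.879) and 0 were at an unadjusted p under 0.05, whereas 1215 of all genes were at an unadjusted p under 0.05 and 0 passed. The widest difference was in Oas2, at 0.30 in the first run and -0.28 in the second. With 1 array of 9 h in the first run and 1 control in the second, this comparison had little precision.

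The rest of the pathway was followed with lists of ligands, receptors, transducers, inhibitors, sensors and other target genes. Of 15 interferon ligands, 6 receptor chains and 9 transducers, 0 passed in any of the 7 comparisons by limma. At an unadjusted p under 0.05 the ligands had 3 at 12 h and 2 at 4 h, the receptors 2 at 4 h and 2 at 48 h, and the transducers 2 at 4 h and 2 at 15 h. Of all genes 15.2% were at that level at 4 h, 13.7% at 12 h, 12.5% at 15 h and 14% at 48 h. The type I receptor chains Ifnar1 and Ifnar2 were at -0.20 ± 0.11 and -0.26 ± 0.09 at 4 h on the log2 scale (adjusted p = 0.428 and 0.206) and at -0.01 ± 0.06 and -0.10 ± 0.05 for the mean of 9, 12 and 15 h. Irf1, a factor induced mainly by type II interferon, was at 0.17 ± 0.14 at 4 h (adjusted p = 0.625) and -0.24 ± 0.11 at 48 h (adjusted p = 0.374).

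Of 9 inhibitors, Socs3 alone passed. Socs3 restrains JAK signalling downstream of several cytokine receptors. Its log2 level in the first run was 7.77 and 7.81 in controls 1 and 2, 8.40 at 4 h, 8.27 at 9 h, 8.09 and 8.07 at 12 h, 8.21 and 8.11 at 15 h, and 7.61 and 7.76 at 48 h. The arrays at 4 to 15 h lay above both controls and the 48 h arrays below them. The log2 fold change of Socs3 was 0.59 ± 0.10 at 4 h (adjusted p = 0.0121) and 0.34 ± 0.06 for the mean of 9, 12 and 15 h (adjusted p = 0.0314), and at 48 h it was -0.47 ± 0.07 from that mean (adjusted p = 0.017). Of all genes 1.99%, 0.787% and 0.978% passed in these comparisons. The 4 h value is that of 1 array, which also carried the intestine and muscle markers, and their part in it was not tested. The 4 h call held without any 1 of the other arrays. The call for the mean was lost without control 1 or 2, without 9 h array 1 or 3 and without any 1 of the 12 h or 15 h arrays, and that of 48 h against the mean without 9 h array 3 or 48 h array 1. With 1 array left out the log2 fold change stayed between 0.32 and 0.38 for the mean and between -0.55 and -0.39 for 48 h against it. Socs1, the inhibitor most tied to interferon receptors, was at 0.00 ± 0.11 at 4 h (adjusted p = 0.999) and -0.05 ± 0.07 for the mean of 9, 12 and 15 h.

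Of 13 further sensors and adaptors, Mavs, the mitochondrial adaptor of RIG-I and MDA5, passed at 48 h against the mean of 9, 12 and 15 h, at 0.49 ± 0.10 on the log2 scale (adjusted p = 0.045). In that comparison 0.978% of all genes passed. A wider set of 72 other interferon target genes had medians of -0.18 at 4 h, -0.09 at 9 h, -0.24 at 12 h, -0.13 at 15 h and -0.19 at 48 h, with 58, 53, 65, 61 and 64 of the 72 below control. Of all genes 50.8%, 45.0%, 52.1%, 52.0% and 46.5% were below control. In the set of 72 Phf11d passed at 4 h (-0.67 ± 0.13, adjusted p = 0.0236) and Ifitm1, which blocks viral entry, passed at 48 h against the mean of 9, 12 and 15 h (-0.58 ± 0.11, adjusted p = 0.0393). Of all genes 1.99% and 0.978% passed there, so 1 of 72 was near the share over all genes in both. The Phf11d call was lost without control 2 (adjusted p = 0.0573) or 9 h array 1, and its log2 fold change lay between -0.73 and -0.55 with 1 array left out. The Ifitm1 and Mavs calls each held with 4 of the 13 arrays left out in turn and were lost without control 3 (adjusted p = 0.0583 and 0.0777), any 9 h or 48 h array, 12 h array 1 or 15 h array 1; that of Ifitm1 was also lost without 12 h array 2 and that of Mavs without 15 h array 2. Over these fits the log2 fold change ran from -0.70 to -0.46 for Ifitm1 and from 0.41 to 0.57 for Mavs. These values rest on the same control arrays as those of the 37 genes.

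Levels of cell markers moved with the comparisons as well. The 11 plasmacytoid dendritic cell markers summed to linear levels of 8126 to 9397 in the first-run controls, 8251 at 4 h, 8677 at 9 h, 6594 to 7443 at 12 h, 6874 to 8020 at 15 h and 8000 to 8007 at 48 h. In the second run the sums were 14930 in control 3 and 13780 to 13920 at 9 h. The lowest of the first-run values was on 12 h array 1. The median deviation of the 11 markers from their run mean was -0.21 there, -0.205 on 15 h array 1, and 0.06 and 0.14 on controls 1 and 2. Siglech, 1 of these markers, was at 8.12 on 12 h array 1 on the log2 scale, against 9.08 and 9.33 in controls 1 and 2. It was at 9.10 on 12 h array 2 and highest, at 9.54, on the first-run 9 h array. Of these 11 markers 10 were below control at 12 h with a median log2 fold change of -0.21, and 0 passed by limma, with 5 at an unadjusted p under 0.05 (13.7% of all genes). Erythroid markers were below control at 4 h in all 17 (median -0.37) and above it at 48 h in all 17 (median 0.31), with 0 passing by limma and 9 and 8 at an unadjusted p under 0.05 (15.2% and 14% of all genes).

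Several other lists of cell markers, but not all, had medians at 48 h about as far below control as the -0.23 of the 37 genes. Of all genes 46.5% were below control there. All 16 stroma and bone markers were below control there (median log2 fold change -0.28), as were 14 of 15 B lineage markers (-0.27), all 7 granulocyte precursor markers (-0.21), 13 of 14 macrophage markers (-0.19), all 17 T and NK cell markers (-0.19) and all 11 monocyte markers (-0.16). Nearer control were the neutrophil markers (-0.11, 14 of 15 below) and the plasmacytoid dendritic cell markers (-0.10, all 11 below). The megakaryocyte markers were at 0.03 (3 of 8 below) and the erythroid markers at 0.31. At 12 h all 8 megakaryocyte markers (-0.27) and 13 of 15 B lineage markers (-0.26) were below control, against the -0.43 of the 37 genes, while the monocyte and neutrophil markers had medians of 0.01 and -0.03. The part of these cells in the differences of the interferon response genes was not tested.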

How the data were processed

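Bone marrow RNA from 13 samples was hybridised to 1-colour Affymetrix arrays. The deposited table holds 1 log2 level per probe set and array, from the authors' RMA run, which the submitters' processing notes name. Its version, and which arrays it covered at once, are not given in the sources used here. Of 35557 probe sets 21789 named 1 gene in the platform annotation, 1621 named several, and 12147 were not listed with a gene here. Symbols were updated through the Entrez identifier, and the probe set with the highest mean stood for a gene, which left 19938 genes. No gene of the list had more than 1 probe set of its own.

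A linear model of the 6 groups, with the run of title numbers as a fixed term, was fitted with limma 3.58.1 in R 4.3.3 (lmFit, eBayes; 6 residual and 4.62 prior degrees of freedom). P-values were adjusted by Benjamini-Hochberg over 19938 genes, with 0.05 as the threshold. Errors of fold changes are standard errors. Precision is limited by the number of arrays. The script was tested on simulated data. Alternatives changed the run term, the arrays, the filter, the probe set rule, the normalization and the moderation, and left out each array. Replicate numbers were given in sample order and pair no arrays.

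The 41 genes, the other lists and the tests were chosen with earlier results of these data known. Every measured gene was named under its role, with values per array for those past the threshold and for 15 listed examples. Per-array values of Rtp4 and Trim30a were added after they had been seen. Of the rest of the pathway, genes past the threshold and Ifnar1, Ifnar2, Irf1 and Socs1 were named. Promoters are from RefSeq (GRCm38.p6); no build is named for the array table, so gene coordinates are not given. Figures were drawn with matplotlib 3.10.9.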

Additional observations from a re-analysis of the deposited data

How the results depend on the processing

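No paired analysis was possible because replicate numbers were given in sample order and pair no arrays. The direction of the median change against control was negative in every alternative run except 9 h with no run term, where it was 0.02. With no run term the other medians that moved by more than the spread between replicates (0.147) were -0.61 at 4 h, -0.68 at 12 h, -0.39 at 15 h, -0.48 at 48 h and -0.18 for 48 h against the mean of 9, 12 and 15 h. That fit sets levels of both runs side by side.

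The counts of passing genes moved more than the medians. With no run term 0 passed by limma at 4 h, at 48 h and for the mean of 9, 12 and 15 h, with 10, 6 and 7 at an unadjusted p under 0.05 (1.52%, 1.45% and 0.487% of all genes). With the first run alone 0 passed by limma at 48 h and for that mean, with 8 and 13 at an unadjusted p under 0.05 (11.8% and 11.2%). With the run as a random block 4 passed at 4 h (2.6% of all genes), 5 at 12 h (0.562%), 3 at 48 h (0.717%), 5 for the mean (1.26%) and 1 for 48 h against the mean (1.68%). Leaving out dim genes gave 2 at 12 h (0.592%) and 5 for the mean (2.6%). With trend and robust moderation 2 passed at 4 h (2.19%), 2 at 12 h (0.326%), 2 at 48 h (0.672%), 5 for the mean (1.22%) and 1 for 48 h against the mean (1.42%), and quantile normalization within each run gave 1 for the last (0.873%). With 1 array left out the counts ran from 1 to 17 at 4 h, 0 to 17 at 12 h, 0 to 3 at 15 h, 0 to 1 at 48 h, 0 to 8 for the mean and 0 to 2 for 48 h against the mean. The upper ends came from leaving out control 1, apart from 48 h against control, where the lower end came from leaving out 48 h array 1, and 48 h against the mean, where control 2 gave the same count. In all, 113 alternative counts stayed within 1.5 times the count with all arrays and 33 did not, and 140 medians stayed within that spread and 6 did not. Allowing 1 or 2 free bases in the response element raised the genes with a match from 14 to 17 of 28. The cause of each shift was not tested. Equal values in the second run and single arrays at 4 h limit what can be called.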
